A study of Mus musculus with 18 samples.

Results

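The genes encoding 3 Janus kinases (Jak1, Jak2 and Jak3) and 6 STAT transcription factors (Stat2, Stat3, Stat4, Stat5a, Stat5b and Stat6) were followed across thymic invariant natural killer T (iNKT) cell subsets of wild-type and Zap70-mutant mice. The 9 genes were taken by name, from 23337 rows of the count table, and all 9 were among the 11118 genes that had enough reads to be tested. iNKT cells are T cells with a nearly fixed T cell receptor that sees lipids held by CD1d, and in the thymus they divide into NKT1, NKT2 and NKT17 cells, named for the cytokines they make. RNA was sequenced from 18 libraries, with 3 libraries in each of 6 groups: NKT1, NKT2 and NKT17 cells from WT mice, and the same subsets from SKG mice. Both genotypes had a BALB/c background. SKG mice carry a spontaneous point mutation in an SH2 domain of Zap70, the kinase that relays T cell receptor signals, which leaves a weakened protein in every cell that makes it. WT and SKG animals came from a BALB/cJ by SKG cross, were bred apart after the second generation and were used in the generation after that, so they were not littermates. Ages and the number of animals behind a library were not given in the sources used here, and nothing tied a library to an animal, so p-values measured the spread between libraries, which may be partly technical.

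Cytokine receptors have no kinase activity of their own. Each receptor chain holds a Janus kinase (JAK), which is switched on when the cytokine joins the chains, and the kinase then phosphorylates a STAT (signal transducer and activator of transcription), which enters the nucleus and switches on target genes. Among T cells, STAT4 acts below IL-12, STAT6 below IL-4 and IL-13, STAT3 below IL-6, IL-21 and IL-23, STAT5A and STAT5B below IL-2, IL-7 and IL-15, and STAT2 below type I interferons, while phosphatases and the SOCS proteins damp the signal. The RNA level of a kinase or factor says nothing of its phosphorylation, which was not measured.

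The sorted populations carried the markers of their labels. NKT1 markers (Tbx21, Cxcr3, Il2rb, Ifng, Xcl1, Itga1) summed to 3818 to 5106 CPM (read counts scaled to a common library size by the TMM method) in the NKT1 libraries and to 158.9 to 406 CPM elsewhere. NKT17 markers (Il23r, Ccr6, Sdc1, Il1r1, Il17re) summed to 1526 to 1739 CPM in the NKT17 libraries and to at most 5.52 CPM elsewhere. NKT2 markers (Zbtb16, Gata3, Il4, Icos, Cd4, Ccr7) summed to 2307 to 2451 CPM in WT NKT2 and to 1662 to 2039 CPM in SKG NKT2 libraries, but NKT17 libraries also held 1389 to 1531 CPM. Of 4 listed B cell markers 3 had a row with counts. They summed to 24.8 to 40.7 CPM in SKG NKT17, 7.82 to 11.1 CPM in WT NKT17 and at most 5.95 CPM elsewhere. Pax5, which defines B cells, had no such row, and absence from the count table and a lack of reads were not told apart. The 6 markers of double-positive thymocytes summed to 14.3 to 47.5 CPM in SKG NKT17 and to at most 13.8 CPM elsewhere, with Rag1, Rag2 and Dntt at or near 0. The 5 myeloid markers reached 19.9 CPM in a WT NKT2 library and at most 12.4 CPM in the other groups. Libraries held 4391029 to 8895917 counted reads, and the 9 genes took 0.152% to 0.274% of them. Zap70 itself was transcribed in every library and was lower in SKG cells, by 0.58 on the log2 scale in NKT17 cells (standard error, SE, 0.12, edgeR adjusted p = 0.00174) and by 0.39 in NKT2 cells (SE 0.12, edgeR adjusted p = 0.0378), while the log2 difference in NKT1 cells was -0.24 (SE 0.11, edgeR adjusted p = 0.360). None of these reached 1.5-fold. A count per gene does not read the point mutation, so it did not check the genotype.

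Promoter windows are shown for Stat4, the gene with the widest range between subsets, and for the Stat5 genes, whose sequences are alike. RefSeq lists 2 starts for Stat4, and the 250 bases before each (build GRCm38.p6, read 5′ to 3′ on the gene's strand) are given here, with capitals marking a match to GAAA, 2 bases of any kind, GAAA, a pattern found in elements that answer interferon. The positions are chr1:51986898-51987147, plus strand, and chr1:52007990-52008239, plus strand.
Stat4 start 1: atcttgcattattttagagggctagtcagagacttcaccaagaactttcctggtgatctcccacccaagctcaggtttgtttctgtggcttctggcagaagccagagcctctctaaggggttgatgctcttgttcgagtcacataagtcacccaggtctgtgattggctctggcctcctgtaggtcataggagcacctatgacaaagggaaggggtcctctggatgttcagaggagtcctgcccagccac
Stat4 start 2: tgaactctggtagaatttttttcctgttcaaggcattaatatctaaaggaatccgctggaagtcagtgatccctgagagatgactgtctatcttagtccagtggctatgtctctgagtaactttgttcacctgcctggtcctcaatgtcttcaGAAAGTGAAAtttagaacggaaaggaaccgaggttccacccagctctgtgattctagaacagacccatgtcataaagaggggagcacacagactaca
The first window held no match, and the second held 1. Over 32851 promoter windows of this length, 2.98% held this pattern on either strand, and 2 of the 12 windows of the 9 genes did, those of Stat2 and Stat4. The palindrome TTCNNNGAA, which most STAT dimers bind, stood in 7.02% of all windows and in 0 of the 12. A further 5 patterns were searched. The T-box site AGGTGTGA was in 1.12% of all windows and in 1 of the 12 (a Stat5a window not shown), and its core GGTGTG, which that site contains, was in 16.3% and in 3. TTC and GAA with 4 bases between them were in 5.85% and in 1, the ETS site CAGGAAG in 10.8% and in 4, and the GATA site AGATAA in 9.99% and in 0. These matches describe letters only, and which Stat4 start the cells used was not read from counts per gene.

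Stat5a and Stat5b lie side by side on chromosome 11 and are transcribed in opposite directions. RefSeq lists 2 starts for each, which gives 4 pairs of windows, and the pair that shared the most sequence is shown, so it was chosen after the windows were seen. Capitals mark the runs of at least 8 bases that both hold in the same order. The positions are chr11:100860234-100860483, plus strand, and chr11:100822571-100822820, minus strand (GRCm38.p6).
Stat5a: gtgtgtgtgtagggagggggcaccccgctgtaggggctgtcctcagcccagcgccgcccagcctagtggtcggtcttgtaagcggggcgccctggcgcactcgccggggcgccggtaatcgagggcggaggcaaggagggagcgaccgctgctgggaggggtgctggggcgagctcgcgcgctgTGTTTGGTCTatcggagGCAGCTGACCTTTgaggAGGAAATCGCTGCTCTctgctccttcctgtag
Stat5b: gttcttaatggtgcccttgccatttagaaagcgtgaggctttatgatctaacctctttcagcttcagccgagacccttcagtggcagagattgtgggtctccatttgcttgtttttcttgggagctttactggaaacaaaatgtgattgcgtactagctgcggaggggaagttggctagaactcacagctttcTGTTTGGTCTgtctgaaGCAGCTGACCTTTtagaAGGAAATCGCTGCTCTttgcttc
These windows shared 3 such runs, 39 bases in all, with the longest of 16 bases, and all stood near the start. The other pairs shared 0 to 19 bases. Each start shown lies downstream of the gene's other listed start, and the windows of the upstream starts shared 0 bases. For Stat5b the upstream window is chr11:100850582-100850831, so the start shown lies well inside the gene. The transcripts were alike as well: 15.2% of the 50-base windows of Stat5a transcripts and 11.1% of those of Stat5b occurred in another gene, each mainly in the other Stat5 gene, so their counts may be split or lost between them. Jak3 shared 11.0% of such windows with the overlapping genes Insl3 and Gm9933. Stat3 and Stat5a overlap by 72 exon bases on opposite strands (build NCBIM37), and reads there cannot be assigned without strand.

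Among the 3 kinase genes, Jak1 was the most abundant and was highest in NKT1 cells, and Jak3 was highest in NKT17 cells. In WT mice 5 of the 9 genes differed between NKT1 and NKT17 cells, 3 between NKT1 and NKT2 cells and 2 between NKT17 and NKT2 cells, counting an adjusted p under 0.1 and a change of at least 1.5-fold in edgeR's quasi-likelihood test. The shares of all tested genes that met the same rule were 24.7%, 27.5% and 20.0%. Without replicate 3 of WT NKT1 the count between NKT1 and NKT2 cells was 5, with Jak2 and Stat5a added.

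**Figure D1:**
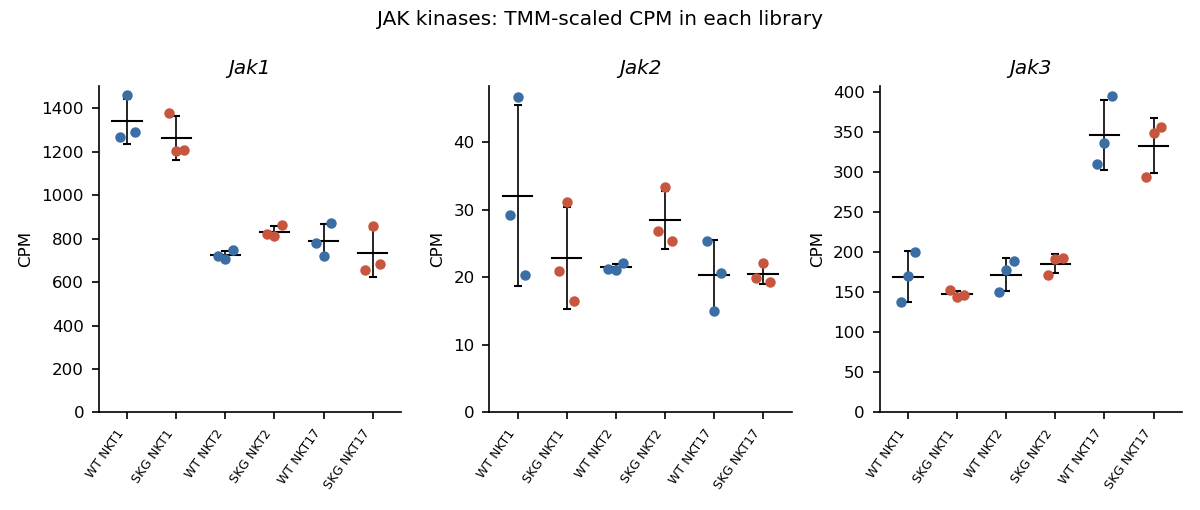
TMM-scaled CPM (linear axes from 0) of the 3 JAK genes in each library, with WT in blue and SKG in red. Horizontal bars are group means and whiskers are SD (n = 3). The 6 NKT1 libraries hold the highest Jak1 levels, and the 6 NKT17 libraries the highest Jak3 levels.

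Jak1, the kinase shared by most cytokine receptors of T cells, read 1270, 1461 and 1289 CPM in WT NKT1 libraries, 721, 706 and 747 in WT NKT2 and 779, 720 and 871 in WT NKT17. All NKT1 libraries stood above all others. The difference was 0.89 on the log2 scale against NKT2 cells (SE 0.11, edgeR adjusted p = 6.92e-07) and 0.76 against NKT17 cells (SE 0.11, edgeR adjusted p = 4.87e-06). SKG NKT1 libraries read 1380, 1205 and 1207 CPM, against 821, 812 and 861 in SKG NKT2 and 654, 858 and 685 in SKG NKT17. The order of NKT1 above the others thus held in SKG mice too, by 0.60 against NKT2 (SE 0.11, edgeR adjusted p = 0.000151) and by 0.79 against NKT17 (SE 0.11, edgeR adjusted p = 3.71e-06). The smaller of these lay close to the fold limit, and without replicate 1 of SKG NKT1 it was 0.54 and no longer met it.

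Jak3 pairs with the common γ chain, the receptor subunit of the IL-2, IL-4, IL-7, IL-15 and IL-21 receptors. It read 309, 336 and 394 CPM in WT NKT17 libraries, 150, 177 and 189 in WT NKT2 and 138, 170 and 201 in WT NKT1. NKT17 cells stood apart, and NKT1 and NKT2 overlapped. Jak3 was 1.01 higher on the log2 scale in NKT17 than in NKT2 cells (SE 0.13, edgeR adjusted p = 3.01e-06) and 1.03 lower in NKT1 than in NKT17 cells (log2 difference -1.03, SE 0.13, edgeR adjusted p = 1.28e-06). In SKG mice NKT17 libraries read 294, 349 and 356 CPM, and the matching differences were 0.84 (SE 0.13, edgeR adjusted p = 3.29e-05) and -1.17 (SE 0.13, edgeR adjusted p = 2.72e-07). Insl3, which shares exon bases with Jak3, is a hormone gene and held 0 to 4 reads per library.

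Jak2, which serves the IL-12, IL-23 and interferon-γ receptors, was the scarcest of the 3, at 86 to 245 reads per library. WT NKT1 libraries read 29.2, 46.8 and 20.4 CPM against 25.4, 15.0 and 20.7 in WT NKT17. The groups overlapped, and the call of 0.66 (SE 0.27, edgeR adjusted p = 0.0816) rested on single libraries: without replicate 2 of WT NKT1 it was 0.27 (edgeR adjusted p = 0.519), without replicate 2 of WT NKT17 it was 0.46 (edgeR adjusted p = 0.302), and without replicate 3 of WT NKT17 it was 0.67 (edgeR adjusted p = 0.145). No Jak2 difference met the rule between SKG subsets.

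Levels per kilobase of exon set genes beside one another only roughly, since the length was the union of all annotated exons and can exceed that of the transcripts made. On this scale Jak1 made up 83.0% ± 1.84 (SD, n = 3) of the summed level of the 3 JAK genes in WT NKT1, 73.4% ± 1.93 in WT NKT2 and 61.4% ± 1.55 in WT NKT17. Jak3 made up 14.1% ± 2.51, 23.5% ± 1.98 and 36.3% ± 2.15 in the same groups. The library ranges of the Jak1 share did not overlap between subsets. SKG groups gave 84.5% ± 0.980, 74.1% ± 1.34 and 60.4% ± 2.85 for Jak1. The summed level of these 3 genes was 223 ± 18.2 CPM per kb in WT NKT1, 137 ± 5.70 in WT NKT2 and 178 ± 17.7 in WT NKT17.

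**Figure D2:**
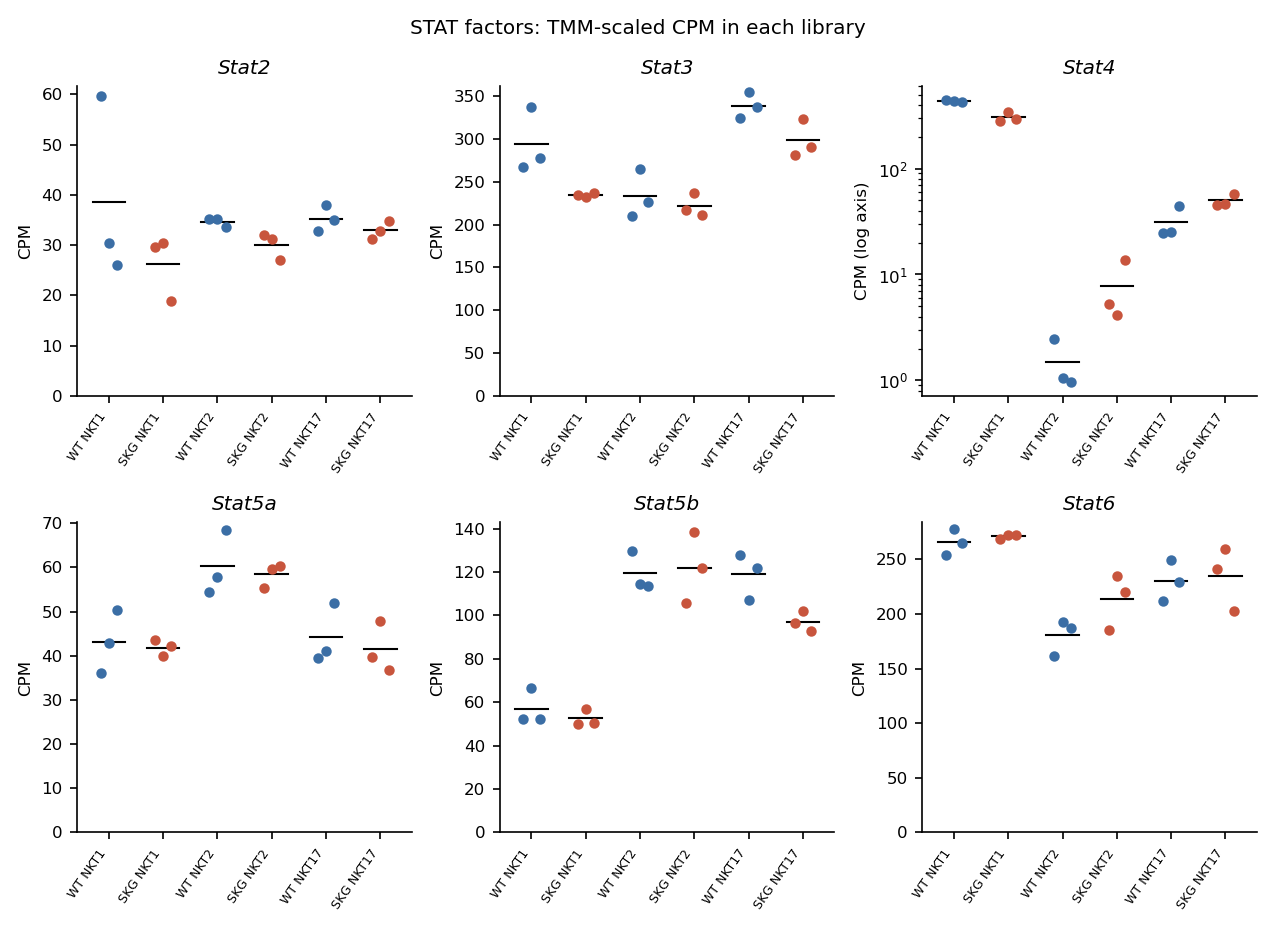
TMM-scaled CPM of the 6 STAT genes in each library, with WT in blue, SKG in red and group means as bars (n = 3). Axes are linear from 0, except for Stat4, which has a log axis. Stat4 spans from 0.970 CPM in a WT NKT2 library to 444 CPM in a WT NKT1 library, and the other 5 genes vary far less between groups.

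Stat4, the factor below IL-12 and a driver of interferon-γ production, had by far the widest range. WT NKT1 libraries read 444, 436 and 429 CPM, WT NKT17 libraries 24.6, 25.0 and 43.9 CPM, and WT NKT2 libraries 2.45, 1.05 and 0.970 CPM, which were 12, 6 and 6 reads. None of these groups overlapped. Stat4 was 8.22 higher on the log2 scale in NKT1 than in NKT2 cells (SE 0.44, edgeR adjusted p = 9.45e-10), 3.79 higher in NKT1 than in NKT17 cells (SE 0.31, edgeR adjusted p = 1.37e-07) and 4.43 higher in NKT17 than in NKT2 cells (SE 0.45, edgeR adjusted p = 2.20e-06). The same order stood in SKG mice with smaller steps: 5.26 (SE 0.35, edgeR adjusted p = 2.53e-08), 2.62 (SE 0.30, edgeR adjusted p = 5.91e-06) and 2.65 (SE 0.34, edgeR adjusted p = 3.11e-05). Among the 9 genes, 3 met the rule between SKG NKT1 and NKT2 cells, 4 between SKG NKT1 and NKT17 cells and 2 between SKG NKT17 and NKT2 cells, as did 18.7%, 22.8% and 18.8% of all tested genes. Without replicate 3 of SKG NKT2 the steps in Stat4 against NKT2 were 6.04 and 3.42. In these bulk samples, fewer cells of a type and less RNA per cell cannot be told apart, so a low Stat4 level could be a few cells with much RNA or many with little.

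Stat5b went the other way. STAT5B carries signals of IL-2, IL-7 and IL-15, and its RNA read 52.3, 66.6 and 52.1 CPM in WT NKT1, 130, 115 and 114 in WT NKT2 and 128, 107 and 122 in WT NKT17. NKT1 stood below the other subsets, which overlapped. The log2 difference was -1.07 against NKT2 (SE 0.13, edgeR adjusted p = 1.28e-06) and -1.06 against NKT17 (SE 0.13, edgeR adjusted p = 1.10e-06), and -1.22 (SE 0.13, edgeR adjusted p = 2.80e-07) and -0.89 (SE 0.13, edgeR adjusted p = 1.68e-05) in SKG mice. Stat5a, its close copy, read 36.1, 42.8 and 50.3 CPM in WT NKT1, 54.4, 57.8 and 68.5 in WT NKT2 and 39.4, 41.0 and 52.0 in WT NKT17. It was highest in NKT2 cells, but its log2 differences of -0.49 for NKT1 against NKT2 (SE 0.16, edgeR adjusted p = 0.0257) and -0.45 for NKT17 against NKT2 (SE 0.16, edgeR adjusted p = 0.0525) passed the p-value and not the 1.5-fold limit.

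Stat3 and Stat6 were abundant in every group and moved little. Stat3, which NKT17 cells use below IL-23 and IL-6, read 325, 355 and 338 CPM in WT NKT17, 267, 338 and 278 in WT NKT1 and 210, 265 and 226 in WT NKT2. NKT17 libraries stood above NKT2 libraries by 0.54 (SE 0.11, edgeR adjusted p = 0.000579), again short of 1.5-fold. Stat6, which acts below IL-4, read 254, 278 and 265 CPM in WT NKT1, 161, 192 and 187 in WT NKT2 and 212, 249 and 229 in WT NKT17. NKT2 cells, the IL-4 producers, were the lowest, with NKT1 above them by 0.56 (SE 0.11, edgeR adjusted p = 0.000465) and NKT17 by 0.35 (SE 0.11, edgeR adjusted p = 0.0252), both below the fold limit. Stat2, a partner in the interferon-activated complex, read 59.6, 30.4 and 26.0 CPM in WT NKT1 and 32.8 to 38.1 CPM in the other WT libraries, and no subset comparison of it met the rule. Its replicate 1 of WT NKT1 held 494 reads against 159 and 147 in the other replicates.

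**Figure D3:**
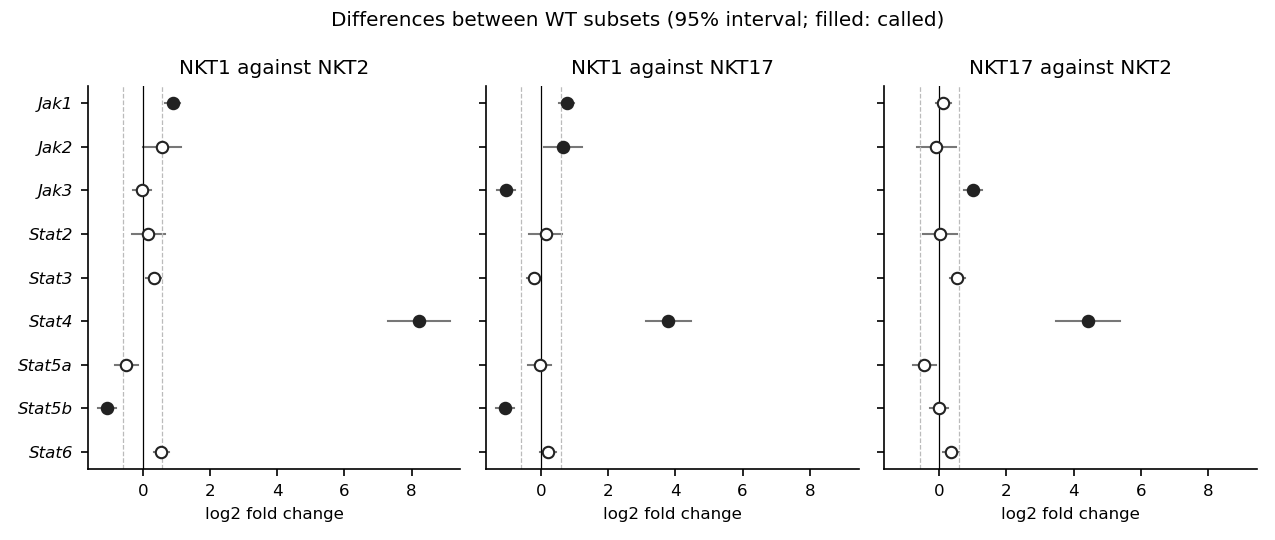
Log2 fold change of each of the 9 genes between WT subsets, with 95% intervals from edgeR. Filled points met an adjusted p under 0.1 and 1.5-fold (dashed lines). Stat4 lies at 8.22, 3.79 and 4.43, while every other gene lies between -1.07 and 1.01.

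By share of the summed level per kilobase, Stat4 was 54.4% ± 1.32 of the 6 STAT genes in WT NKT1 cells, 0.464% ± 0.283 in WT NKT2 and 7.38% ± 2.33 in WT NKT17 (SD, n = 3). Stat6 was 39.4% ± 1.90 in WT NKT2 and 39.2% ± 2.29 in WT NKT17, the largest of the 6 there. That rank depended on the division by length: without it, Stat3 stood above Stat6, at 37.0% against 28.6% in WT NKT2 and at 42.5% against 28.8% in WT NKT17. The summed level of the 6 STAT genes was 255 ± 7.05 CPM per kb in WT NKT1 against 104 ± 5.12 in WT NKT2 and 133 ± 6.55 in WT NKT17, and Stat4 accounted for most of the gap, at 139 ± 2.30 CPM per kb in WT NKT1.

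**Figure D4:**
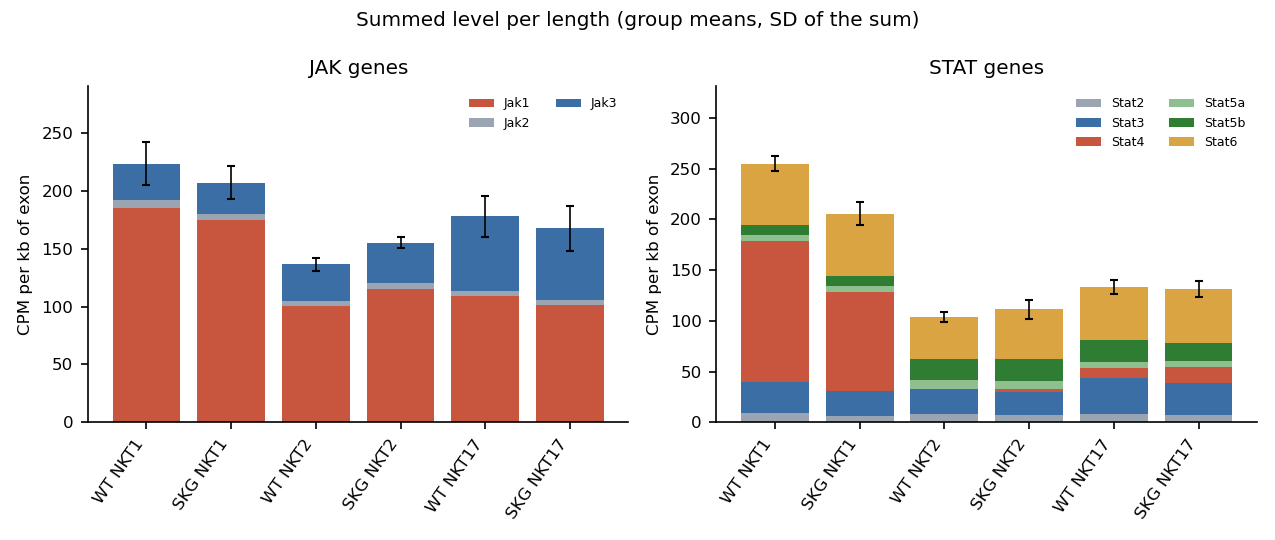
Mean level of each of the 3 JAK and 6 STAT genes in CPM per kb of exon, stacked by group, with whiskers for the SD of the sum (n = 3). The Stat4 segment is 139 CPM per kb in WT NKT1 and 97.9 in SKG NKT1, and at most 16.0 in any NKT2 or NKT17 group.

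The receptors that feed these factors were also divided by subset. Of 24 listed receptor chains, 21 were tested, and 14 were higher and 4 lower in WT NKT1 than in WT NKT2 cells by the rule above, and 9 higher and 7 lower than in NKT17 cells, where 27.5% and 24.7% of all tested genes met it. Il12rb2, the signalling chain for IL-12 upstream of STAT4, averaged 199.9 CPM (SD 14.3) in WT NKT1, 1.54 (SD 1.46) in WT NKT2 and 0.0915 in WT NKT17, where 2 reads were counted over 3 libraries. Il23r, the IL-23 receptor upstream of STAT3, averaged 454 CPM (SD 2.85) in WT NKT17 and at most 0.248 CPM in the other WT subsets. Il2rb, shared by the IL-2 and IL-15 receptors, averaged 2676 CPM (SD 184.3) in WT NKT1, 232 (SD 21.1) in WT NKT2 and 297.7 (SD 22.0) in WT NKT17. Stat5b was low in the subset where Il2rb was high. Il4ra, the chain that recruits STAT6, averaged 126.0 CPM (SD 28.9) in WT NKT1, 7.50 (SD 2.24) in WT NKT2 and 24.6 (SD 3.67) in WT NKT17, and NKT1 exceeded NKT2 by 4.05 on the log2 scale (SE 0.24, edgeR adjusted p = 1.95e-11). Il6st, the gp130 chain of the IL-6 receptor, averaged 16.1 CPM (SD 5.24), 6.11 (SD 0.854) and 10.6 (SD 4.17) in the same order, and NKT1 exceeded NKT2 by 1.4 (SE 0.41, edgeR adjusted p = 0.0117).

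Comparing SKG with WT within each subset asked whether weaker Zap70 went with other levels of the same genes. Of the 9 genes, 0 met the rule in NKT1 cells, 1 in NKT2 cells (Stat4) and 0 in NKT17 cells, where 3.27%, 7.95% and 8.37% of all tested genes did. At an unadjusted p under 0.05, 2 of the 9 passed in each subset, against 13.9%, 20.9% and 21.6% of all tested genes. DESeq2 gave the same counts of 0, 1 and 0.

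**Figure D5:**
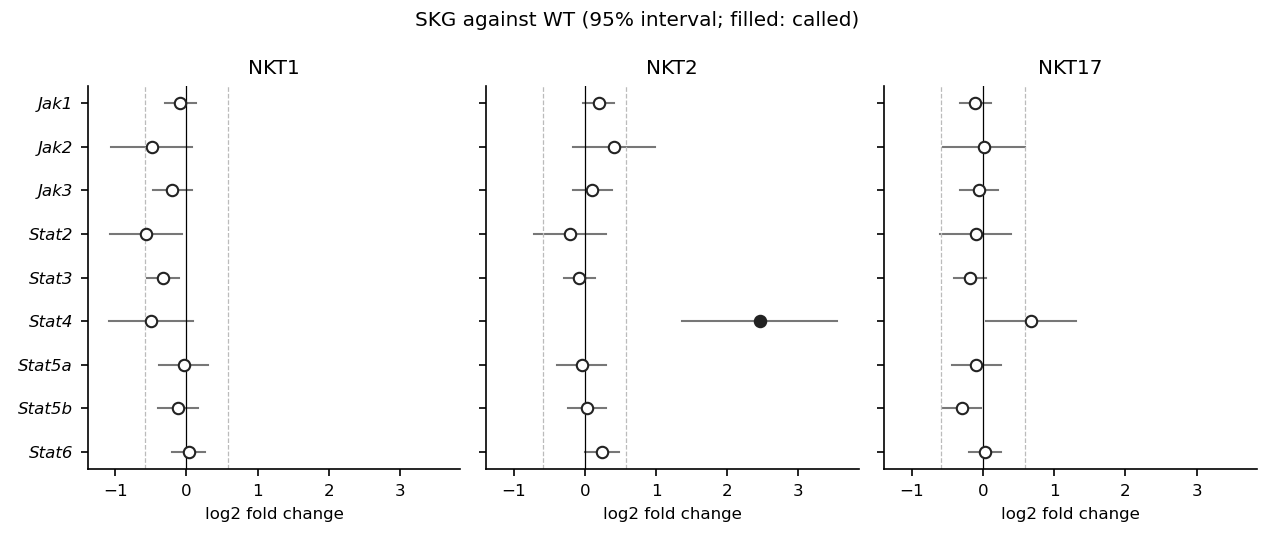
Log2 fold change of SKG against WT for each of the 9 genes within each subset, with 95% intervals from edgeR, filled where an adjusted p under 0.1 and 1.5-fold (dashed lines) were met. Stat4 in NKT2 cells, at 2.46, is the single filled point.

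Stat4 in SKG NKT2 libraries read 5.29, 4.11 and 13.8 CPM (24, 21 and 86 reads), against 2.45, 1.05 and 0.970 CPM in WT NKT2. The groups did not overlap, as was so for 30.1% of tested genes. The rise was 2.46 on the log2 scale (SE 0.51, 95% interval 1.37 to 3.55, edgeR adjusted p = 0.00603). Replicate 3 of SKG NKT2 held the highest value, and without it the rise was 1.68 (edgeR adjusted p = 0.0163). The level stayed far below that of SKG NKT1 cells, at 308 CPM (SD 32.1).

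NKT1 markers were compared in the NKT2 cells, where Stat4 rose. Of the 6 NKT1 markers, 0 were higher by the rule and 1 lower (Il2rb) in SKG than in WT NKT2 cells. Their sum was 207.7 to 299.6 CPM in SKG against 293.6 to 406 CPM in WT, and Tbx21 was 12.3 to 24.2 CPM against 18.2 to 44.6 CPM. Il2rb averaged 149 CPM (SD 12.7) in SKG and 232 (SD 21.1) in WT, a large part of that sum, so the sum largely followed Il2rb. Of the 6 NKT2 markers, 0 were higher and 2 lower (Gata3 and Icos) in SKG than in WT NKT2 cells, and their sum was 1662 to 2039 CPM against 2307 to 2451 CPM. The part of other subsets in the Stat4 difference was not tested.

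In NKT17 cells Stat4 read 45.8, 46.8 and 58.2 CPM in SKG against 24.6, 25.0 and 43.9 CPM in WT. The libraries did not overlap, as was so for 26.9% of tested genes, but the log2 difference of 0.67 (SE 0.30, edgeR adjusted p = 0.201) missed the threshold. Without replicate 3 of WT NKT17 it was 1.02 (edgeR adjusted p = 0.0569). The B cell and double-positive thymocyte markers moved with this group, at sums of 24.8 to 40.7 and 14.3 to 47.5 CPM in SKG against 7.82 to 11.1 and 5.27 to 12.5 CPM in WT, and their part in the difference was not tested. Of these, Cd79b and Cd8b1 read higher in SKG NKT17 libraries, at 24.6 to 40.0 and 12.4 to 36.8 CPM against 7.55 to 10.2 and 1.76 to 11.8 CPM, while Rag1, Rag2 and Dntt had no count there. In NKT1 cells Stat4 read 284, 345 and 296 CPM in SKG against 444, 436 and 429 in WT. The libraries did not overlap, as was so for 16.3% of tested genes, and the log2 difference was -0.50 (SE 0.27, edgeR adjusted p = 0.456). Over the alternatives the difference ranged from -0.66 to -0.43 and its adjusted p (edgeR or DESeq2) from 0.0401 to 0.702, and none met the rule.

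The SKG difference in Stat4 was itself compared between subsets. It was larger in NKT2 than in NKT1 cells by 2.96 (SE 0.58, edgeR adjusted p = 0.0101), which met the rule as 3.87% of tested genes did. NKT17 minus NKT1 gave 1.18 (SE 0.40, edgeR adjusted p = 0.163) and NKT17 minus NKT2 gave -1.78 (SE 0.60, edgeR adjusted p = 0.230), and neither passed, in comparisons where 4.17% and 2.19% of tested genes did. Without replicate 3 of SKG NKT2 the first was 2.16 (edgeR adjusted p = 0.0118), without replicate 3 of WT NKT17 the second was 1.51 (edgeR adjusted p = 0.0592), and without replicate 2 of SKG NKT2 the last was -2.09 (edgeR adjusted p = 0.0945). Without replicate 3 of SKG NKT2 the last was -1.01 (edgeR adjusted p = 0.472). Jak2 gave 0.90 in the first (SE 0.39, edgeR adjusted p = 0.287), which was 1.13 (edgeR adjusted p = 0.0994) without replicate 3 of WT NKT1 and 0.53 (edgeR adjusted p = 0.577) without replicate 2 of WT NKT1. Averaged over the subsets, Stat4 was higher in SKG by 0.88 (SE 0.22, edgeR adjusted p = 0.0136), 1 of the 9 genes by the rule against 8.24% of all tested genes. That average joins differences of opposite sign. Its SE took all libraries as independent. Libraries of a genotype with the same title number correlated at up to 0.351, so that SE may be too small.

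The other STAT genes differed little between genotypes. Stat3 read 234, 233 and 237 CPM in SKG NKT1 libraries, all below the WT NKT1 libraries, with a log2 difference of -0.33 (SE 0.11, edgeR adjusted p = 0.120). Libraries did not overlap for 16.3% of tested genes in that comparison. Averaged over subsets Stat3 was lower in SKG by 0.20 (log2 difference -0.20, SE 0.06, edgeR adjusted p = 0.0343), which did not reach 1.5-fold. The SE of this average has the same limit as that of Stat4. Stat5b in NKT17 cells read 96.6, 102 and 92.9 CPM in SKG against 128, 107 and 122 in WT, with a log2 difference of -0.29 (SE 0.13, edgeR adjusted p = 0.192). Stat2 in NKT1 cells gave -0.57 (edgeR adjusted p = 0.287). Without replicate 1 of WT NKT1 it was -0.09, and without replicate 3 of WT NKT1 it met the rule at -0.78 (edgeR adjusted p = 0.0894).

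Among the JAK genes, Jak1 and Jak3 gave narrow intervals. For Jak1 the 95% interval of the SKG difference was -0.30 to 0.13 in NKT1, -0.02 to 0.42 in NKT2 and -0.33 to 0.11 in NKT17, and for Jak3 it was -0.47 to 0.07, -0.16 to 0.38 and -0.32 to 0.21, so each lay within 1.5-fold. For Jak2 it was wider, at -1.06 to 0.08, -0.16 to 0.98 and -0.56 to 0.59.

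Receptors, ligands and feedback genes of the pathway were compared in the same way. Among the 21 tested receptor chains, 1 rose and 2 fell in SKG NKT1, 7 rose and 1 fell in SKG NKT2, and 3 rose and 3 fell in SKG NKT17, against the 3.27%, 7.95% and 8.37% of all tested genes that met the rule in either direction. The median log2 change of the list was -0.11, 0.64 and 0.11, against a median within 0.01 of 0 over all genes. Il4ra rose most clearly in NKT2 cells, from 7.50 CPM (SD 2.24) to 70.0 (SD 16.7), a log2 change of 3.20 (SE 0.24, edgeR adjusted p = 9.00e-09). The others that rose there were Ifngr2, Il10ra, Il21r, Il2ra, Il6ra and Il7r. Il2rb fell in NKT2 cells, by 0.64 on the log2 scale (SE 0.11, edgeR adjusted p = 0.000439). Ifngr1, the interferon-γ receptor chain that binds JAK1, fell in NKT1 cells from 1382 CPM (SD 79.7) to 803 (SD 27.4), a log2 change of -0.78 (SE 0.11, edgeR adjusted p = 0.000188), and in NKT17 cells from 686 CPM (SD 101.0) to 338 (SD 41.1), a change of -1.02 (SE 0.11, edgeR adjusted p = 1.82e-06). Il6ra rose in NKT1 cells by 1.37 (SE 0.31, edgeR adjusted p = 0.0183), and Il10rb, a chain of the IL-10 and IL-22 receptors, rose in NKT17 cells by 0.80 (SE 0.13, edgeR adjusted p = 0.000255).

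Of 13 listed ligands 8 were tested, and 2 rose in SKG NKT1, 2 fell in SKG NKT2 and 2 fell in SKG NKT17, beside the same shares of all tested genes (3.27%, 7.95% and 8.37%). Il4, the ligand upstream of STAT6, rose in NKT1 cells from 15.3 CPM (SD 9.04) to 47.5 (SD 8.47), a log2 change of 1.65 (SE 0.32, edgeR adjusted p = 0.00614). Il21 fell in NKT2 cells, from 4.67 CPM (SD 1.68) to 0.268 (edgeR adjusted p = 0.0405). Il13 fell in NKT17 cells from 1, 6 and 6 reads to no read in any library (edgeR adjusted p = 0.0130).

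Of 18 listed inhibitors, all tested, 2 rose and 1 fell in SKG NKT1, and 1 rose and 1 fell in each of SKG NKT2 and SKG NKT17, while 3.27%, 7.95% and 8.37% of all tested genes met the rule. Cish, a STAT5-induced inhibitor, was the only gene of this list that rose by the rule in all 3 subsets. It read 104, 77.1 and 88.0 CPM in WT NKT1 against 146, 146 and 162 in SKG, 17.0, 9.79 and 16.2 in WT NKT2 against 78.2, 63.4 and 81.3 in SKG, and 35.7, 19.1 and 30.9 in WT NKT17 against 106, 75.0 and 117 in SKG. The log2 changes were 0.76 (SE 0.21, edgeR adjusted p = 0.0502), 2.38 (SE 0.23, edgeR adjusted p = 3.09e-07) and 1.80 (SE 0.22, edgeR adjusted p = 8.22e-06). Socs2 rose and Socs3 fell in NKT1 cells, by log2 changes of 1.42 (SE 0.32, edgeR adjusted p = 0.0246) and -1.38 (SE 0.30, edgeR adjusted p = 0.0193). Pias3 fell in NKT2 cells, with a change of -0.83 (SE 0.30, edgeR adjusted p = 0.0904), and the phosphatase gene Ptpn6 fell in NKT17 cells, with a change of -0.64 (SE 0.16, edgeR adjusted p = 0.0175).

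Of 10 listed target genes, 1 rose and 1 fell in SKG NKT1, 2 rose in SKG NKT2 and 3 rose in SKG NKT17, with all tested genes at 3.27%, 7.95% and 8.37%. Pim2, a survival kinase, fell in NKT1 cells from 452 CPM (SD 34.9) to 169 (SD 19.9), a log2 change of -1.42 (SE 0.13, edgeR adjusted p = 7.81e-07), and was among those that rose in NKT17 cells. Bcl2l1 rose in NKT1 cells by 0.84 (SE 0.18, edgeR adjusted p = 0.00781). Pim1 rose in NKT2 cells from 7.87 CPM (SD 3.56) to 39.6 (SD 6.70), a log2 change of 2.32 (SE 0.37, edgeR adjusted p = 0.000700). Ccnd3, which drives entry into the cell cycle, rose in NKT17 cells from 116 CPM (SD 21.8) to 233 (SD 19.6), a change of 1.01 (SE 0.13, edgeR adjusted p = 1.25e-05). Such genes answer to many signals, and the lists were not read as a measure of STAT activity.

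For the 3 genes whose WT subset means spanned at least 2-fold, the genes with the most similar pattern were sought by Pearson's r of log2 CPM over the 18 libraries, as a description, since those libraries share subsets and genotypes. Hsd11b1 (r = 0.981), Sorl1 (r = 0.975) and Prf1 (r = 0.973), which encodes the pore-forming protein perforin, were nearest to Stat4. St6galnac3, Pde5a and Rab27a (r = 0.967 each) were nearest to Jak3. Ociad2 (r = 0.958), Tcf7 (r = 0.957) and Ptprf (r = 0.952) were nearest to Stat5b, and Tcf7 encodes TCF1, a factor of early T cells. Among the 9 genes, r was 0.84 between Stat4 and Stat6, 0.80 between Jak1 and Stat4 and 0.72 between Jak3 and Stat3, and -0.85 both between Stat4 and Stat5b and between Jak1 and Stat5b.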

How the data were processed

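Per the labels and the study's methods, thymic iNKT cells were sorted by CD1d tetramer as NKT1 (ICOS low, CD49a+), NKT2 (ICOS high, CD4 high, Sdc-1-) or NKT17 (ICOS high, Sdc-1+), so Itga1, Icos, Cd4 and Sdc1 are partly gate genes. Poly-A RNA was amplified by a Smart-seq2-like method and read from 1 end. The authors deposited raw read counts per gene. The submitters' processing notes list Bowtie 1.0.0, TopHat 1.4.1, HTSeq 0.7.1 and the builds mm10 and hg19, while the methods text names mm9, and the annotation and the strand setting were not given in the sources used here. A single table held the counts, and 2 of its columns matched no listed sample and were not used.

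Counts were tested with edgeR 4.0.16 (R 4.3.3): filterByExpr, TMM scaling, and robust quasi-likelihood fits over all 6 groups of 3 libraries (12 residual degrees of freedom), with Benjamini-Hochberg adjustment over 11118 genes. Genes were called at an adjusted p under 0.1 and 1.5-fold, the limits the study used. CPM values were TMM-scaled, and levels per kilobase used the union of exons in NCBIM37 (GENCODE M1). A prior count of 2 entered only the log2 CPM used for correlations. It did not enter the fold changes, so those of genes with few reads were not damped by it. The fit was tested on simulated data, and the outcome is not given here. Changes were simulated only in genes well covered in NKT2 cells, so it says nothing of genes with few reads. Alternatives were DESeq2 1.42.0, other scalings, filters and thresholds, a replicate block and each library left out. Depth limits genes with few reads, such as Stat4 in NKT2 cells. Libraries of a group differed by more than sampling noise, so none was merged.

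The members and gene lists were chosen with earlier results of these data known. Named genes were the 9 members, Zap70, 5 fixed receptor chains in WT subsets, the called gene with the smallest adjusted p in each direction of each pathway list and SKG comparison, and the 3 genes most like each member with a WT range of at least 2-fold. Cish in all subsets, the other genes listed as rising in NKT2 cells, Tbx21, Cd79b, Cd8b1 and the search patterns for promoters were added after values were seen. Promoter sequences are RefSeq's. Some family members and markers are not reported here, and family shares, ranks and marker sums leave them out.

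The pairing by title number was checked from deviations from group means. Same-numbered libraries correlated at -0.0612 to 0.351 within a genotype and at -0.151 to 0.09 between genotypes, and the labels do not say what the number marks.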

Additional observations from a re-analysis of the deposited data

Results flagged for a closer look

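The SKG difference in Stat4 varied between subsets. The log2 difference was 2.46 in NKT2 and -0.50 in NKT1 cells, and the interaction of 2.96 (SE 0.58; edgeR adjusted p = 0.0101) passed the test. In NKT17 cells all SKG libraries stood above all WT libraries, and in NKT1 cells all stood below, where 26.9% and 16.3% of tested genes did not overlap. That put the second difference of 1.18 (SE 0.40) on the list, although its own test did not pass (edgeR adjusted p = 0.163).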

How the results depend on the processing

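All 22 calls on the 9 genes were recomputed under the alternatives. 20 were kept throughout, and 2 were lost under some: Jak2 between WT NKT1 and NKT17 cells (adjusted p under 0.05, upper-quartile scaling, only the compared libraries, or without replicate 2 of WT NKT1, 2 of WT NKT17 or 3 of WT NKT17) and Jak1 between SKG NKT1 and NKT2 cells (upper-quartile scaling, or without replicate 1 of SKG NKT1). Over 117 pairs of gene and comparison, 73 of 2016 alternative values, in 34 pairs, changed sign, none of them in a called pair. Detailed ranges were kept for the 53 pairs with an adjusted p under 0.1, 1.5-fold, a call under some alternative or groups that do not overlap, a limit chosen after seeing the data. The largest value with a change of sign was that of Stat2 for NKT17 minus NKT1, at 0.47, which rested on replicate 1 of WT NKT1. Without the fold limit the calls became 2 for SKG against WT on average, 6 for NKT1 against NKT2 in WT and 6 in SKG, and 5 for NKT17 against NKT2 in WT and 5 in SKG. Of all 11118 tested genes, 2288 then passed on average, 4317 and 2870 for NKT1 against NKT2 in WT and SKG, and 3117 for NKT17 against NKT2 in WT. With only the compared libraries, Stat4 gave 1 call for SKG against WT in NKT17 and 1 for NKT17 minus NKT1. DESeq2 gave 1 for NKT17 minus NKT2 (Stat4). With each library left out in turn, calls ranged from 0 to 1 for SKG against WT in NKT1 and in NKT17, from 3 to 5 for NKT1 against NKT2 in WT, from 1 to 2 for NKT2 minus NKT1, and from 0 to 1 for NKT17 minus NKT1 and for NKT17 minus NKT2. Over all genes, at least 11308 tested, the same fits called 249 to 400 for SKG against WT in NKT1, 652 to 918 in NKT17 and 2843 to 3356 for NKT1 against NKT2 in WT. Where 1 of 3 libraries was left out, the other groups still set the spread. Without division by exon length the Stat4 share was 38.5% in WT NKT1, 3.89% in WT NKT17, 32.9% in SKG NKT1 and 6.70% in SKG NKT17, and the Jak1 share was 86.9%, 78.9% and 68.3% in WT NKT1, NKT2 and NKT17 and 88.1%, 79.5% and 67.3% in SKG. The cause of other changes was not tested.

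With a replicate block from the number in the titles the 9 genes gave 22 calls, as without it, and 0 calls differed. The block is not a pairing the labels state. The correlation of same-numbered libraries passed 0.1 in 12 of 18 pairs within a genotype and in 0 of 18 between genotypes. Where WT and SKG libraries shared a number the block joined them, so unchanged calls do not fully test dependence within a genotype. Counts over all genes moved by over 1.5 times in 8 cases: SKG against WT gave 207 genes in NKT1 with only the compared libraries (364 otherwise), 1398 in NKT17 and 2288 on average without the fold limit (931 and 916) and 592 on average with a mean of at least 50 counts. At an adjusted p under 0.05, NKT17 minus NKT1 gave 278 (464) and NKT17 minus NKT2 gave 155 (244). Without replicate 3 of SKG NKT17 the former gave 296, and without replicate 1 of SKG NKT17 the latter gave 157. Upper-quartile scaling moved the median log2 change of all genes by -0.10 for NKT1 against NKT2 in WT, and Stat5a passed the rule there at -0.59.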
